A study of Mus musculus with 6 samples.

Results

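The mitochondrial ribosomal protein genes were taken as every row of the deposited gene table whose symbol is Mrpl or Mrps followed by a number and at most 1 letter. The rule found 77 genes among 24421 rows, 48 Mrpl genes named for the large subunit and 29 Mrps genes named for the small subunit, and it used no measured value. All 77 passed the filter on low counts, as did 15792 rows in all. Expression was measured by sequencing polyadenylated RNA from engineered muscle made of C2C12 cells, a mouse myoblast line that forms contractile myotubes when serum is lowered. The constructs, cast in type I collagen, received 100 ng/mL of TNF-alpha, an inflammatory cytokine, for 72 h in one group of 3, and the PBS vehicle in the other group of 3. Both groups came from the same line, grew in the same collagen devices and had been switched to differentiation medium with horse serum. The titles call the numbered libraries biological replicates, but the source labels give no separate cell batches for them. The p-values therefore reflect how far these constructs differ from each other, which may be partly technical. Each construct is made of 1 cell line, with no nerve, vessel or immune cells added in the protocol.

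The mitochondrial ribosome translates the few proteins encoded by mitochondrial DNA, which are core subunits of the respiratory chain and of ATP synthase. All of its proteins are encoded in the nucleus, made on cytosolic ribosomes and imported, while its RNA comes from mitochondrial DNA. Some of the proteins descend from bacterial ribosomal proteins and others are specific to mitochondria, and in muscle, a tissue rich in mitochondria, its output is needed to assemble the respiratory chain.

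The 6 libraries held between 81713008 and 93533748 counts assigned to genes, and the members held between 650 and 7506 counts each in any library. TNF-alpha replicate 1 stood apart for these genes, and for other mitochondrial lists too. It had the highest level of the 3 TNF-alpha libraries for 75 of the 77 members, or 97.4%, whereas over all tested genes it was the highest for 39.7%. The pattern was not particular to the members. This library was also the highest for 96.3% of 27 mitochondrial import genes, 90% of 20 mitochondrial tRNA synthetase genes and 86.2% of 29 assembly genes. For 15 mitochondrial chaperone and protease genes the share was 60%, and for 12 biogenesis regulators 33.3%. The log2 level of this library over the mean of TNF-alpha replicates 2 and 3 had a median of 0.17 over the members. That median was 0.16 over the import genes, 0.00 over all tested genes and -0.12 over the cytosolic ribosomal protein genes. The same library had the lowest summed level of 18 proliferation genes, 301 CPM (counts scaled to a common library total), against 416 and 370 CPM in TNF-alpha replicates 2 and 3. The part of this library in the results was not tested, and its effect on each count is given below by leaving it out.

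The constructs were checked against 6 myotube genes, all of which were expressed. Their summed level was 4888 to 5763 CPM in the TNF-alpha libraries and 7324 to 8587 CPM in the vehicle libraries. Of the 6, Ckm, Tnnt3, Myh3 and Actn2 fell, Myog rose (log2 fold change 0.39) and Acta1 did not pass the test (-0.04). The 18 proliferation genes summed to 301 to 416 CPM with TNF-alpha and 763 to 1008 CPM with vehicle, and 16 of them fell. The 5 fibroblast markers summed to 312 to 395 CPM with TNF-alpha and 543 to 630 CPM with vehicle. Of these, Dpt, Lum and Col6a3 fell, Dpt by 5.56 on the log2 scale, Pdgfra rose by 0.60, and Thy1 was too low to be tested. The 4 myoblast markers summed to 517 to 554 CPM with TNF-alpha and 473 to 715 CPM with vehicle, of which Pax7 and Cdh15 fell, Myf5 rose and Vcam1 did not pass. The 6 leukocyte markers summed to 20.8 to 22.5 CPM with TNF-alpha and 5.29 to 5.55 CPM with vehicle, nearly all of it Cd68. Of the 3 that could be tested, Cd68 and Csf1r rose and Itgam did not pass. Csf1r had 110, 144 and 122 counts with TNF-alpha, against 22, 20 and 24 with vehicle. The defining leukocyte genes Ptprc and Cd3e were at 0 in the 3 TNF-alpha libraries. In vehicle replicates 1, 2 and 3, Ptprc had 4, 3 and 2 counts and Cd3e had 2, 0 and 0. The 3 endothelial and the 3 adipocyte markers each summed to under 1 CPM in every library. The part of these shifts in the results below was not tested. In bulk RNA, fewer cells of a type and less RNA per cell cannot be told apart.

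The promoters of the genes that moved are shown before their values, because the members share sequence features that the symbol rule did not use. RefSeq promoter windows on GRCm38.p6, with 250 bases before and 50 after the start, were matched by symbol for 68 of the 77 members. The 120 bases before the start are printed below, 5′ to 3′ on the gene's own strand, for the 4 genes that rose and for the 4 with the largest falls among those with a window (Mrps28 and Mrpl54 had none). In 4 of these 8 genes, Mrps30, Mrpl23, Mrpl41 and Mrps6, no match was found. Capitals mark a match on either strand to the letters that 3 kinds of factor are known to bind. These are CCGGAAG for ETS factors such as GABP, GCGCA followed after 1 base by GCGC for nuclear respiratory factor 1, and AAGATGG for YY1.
Mrpl45, chr11:97315596-97315715, plus strand: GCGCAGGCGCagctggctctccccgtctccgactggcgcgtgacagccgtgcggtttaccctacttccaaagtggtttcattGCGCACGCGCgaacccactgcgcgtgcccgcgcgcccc
Mrps30, chr13:118387253-118387372, minus strand: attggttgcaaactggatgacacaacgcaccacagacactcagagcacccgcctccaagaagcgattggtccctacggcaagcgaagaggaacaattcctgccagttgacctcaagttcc
Mrpl44, chr1:79775898-79776017, plus strand: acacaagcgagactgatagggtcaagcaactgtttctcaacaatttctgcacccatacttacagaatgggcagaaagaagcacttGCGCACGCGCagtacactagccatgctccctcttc
Mrpl43, chr19:45006443-45006562, minus strand: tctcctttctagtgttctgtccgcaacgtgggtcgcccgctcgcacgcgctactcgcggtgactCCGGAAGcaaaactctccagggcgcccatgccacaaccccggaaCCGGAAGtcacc
Mrpl23, chr7:142532912-142533031, plus strand: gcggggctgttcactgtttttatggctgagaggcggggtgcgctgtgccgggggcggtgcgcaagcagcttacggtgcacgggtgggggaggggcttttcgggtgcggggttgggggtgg
Mrpl52, chr14:54426789-54426908, plus strand: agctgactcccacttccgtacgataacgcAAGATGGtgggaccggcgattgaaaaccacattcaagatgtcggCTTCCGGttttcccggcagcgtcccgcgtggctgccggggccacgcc
Mrpl41, chr2:24975099-24975218, minus strand: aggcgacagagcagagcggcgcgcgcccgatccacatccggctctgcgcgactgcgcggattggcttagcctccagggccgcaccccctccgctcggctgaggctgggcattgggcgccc
Mrps6, chr16:92058216-92058335, plus strand: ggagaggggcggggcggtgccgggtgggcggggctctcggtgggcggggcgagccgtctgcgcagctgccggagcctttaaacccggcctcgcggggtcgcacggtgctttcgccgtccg

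The ETS letters stood in the window of 36.8% of the 68 members, against 9.93% of the 27025 genes with a window. These 27025 include genes too low to be tested here, whereas all members were tested. The shares among tested genes alone were not computed, so the part of expression in these differences was not tested. The nuclear respiratory factor 1 letters stood in 19.1% of the members and in 5.19% of all genes. The YY1 letters stood in 19.1% of the members and in 7.28% of all genes. At least 1 of these motifs was found in 42 of the 68 members (61.8%) and in 5414 of the 27025 genes. The CCAAT letters stood in 39.7% of the members and 41.1% of all genes, and TATAAA was found in 7.35% of the members and 15.7% of all genes. The median GC content of the windows was 58.5% in the members and 52.7% in all genes, and its part in these shares was not tested. Both strands were searched, and a gene was counted once however many matches its windows held, so that overlapping matches did not add to its count. Among the genes that rose, 2 of 4 held the nuclear respiratory factor 1 letters, as did 1 of 15 that fell and 10 of 49 that did not pass the test. The ETS letters stood in 1 of 4 that rose, 7 of 15 that fell and 17 of 49 that did not pass, and the YY1 letters in 0 of 4, 2 of 15 and 11 of 49. A match in these windows describes letters and is no binding site shown here.

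Some of the members also stood in a particular arrangement in the genome. In the GENCODE M21 annotation, 18 of the 77 (23.4%) had a head-to-head neighbour, against 7.04% of 19927 protein-coding genes of the table. Such a neighbour is a protein-coding gene on the opposite strand whose start lies upstream of the gene's own start, within 1000 bp. Pairs that overlap at their starts, such as Mrps11 and Mrpl46, were not counted. The 19927 genes include genes too low to be tested here, whereas all members were tested. The share among tested genes alone was not computed, so the part of expression in this difference was not tested. Mrps12 starts 172 bp from Sars2, the mitochondrial seryl-tRNA synthetase gene. Mrpl49 starts 59 bp from Fau, which encodes a cytosolic ribosomal protein fused to a ubiquitin-like domain, and Mrpl32 starts 75 bp from the proteasome gene Psma2. Among the members that moved, Mrpl54, Mrpl41 and Mrps18c had such a neighbour by this count, and none of the 4 that rose did.

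TNF-alpha constructs differed little from vehicle constructs in these genes. Of the 77 members, 4 rose, 17 fell and 56 did not pass the test (edgeR quasi-likelihood test, Benjamini-Hochberg adjusted p under 0.05 over all 15792 genes). The called share was 27.3%, against 55.5% of all tested genes. Rises made up 5.19% of the members and 27.6% of all tested genes, and falls made up 22.1% of the members and 27.9% of all tested genes. With all 6 libraries, the share of members that fell was thus near the background, and the share that rose was below it. The largest change was 1.63-fold, and 17.9% of all tested genes were called with a change of at least 2-fold. No member reached that size with edgeR, at an adjusted or an unadjusted p under 0.05, or with DESeq2 or limma-voom (0 of 77 each). The groups of 3 did not overlap for 24 members with TNF-alpha lower and 10 with TNF-alpha higher, against 31.9% lower, 32.6% higher and 64.5% in either direction over all tested genes. The median log2 fold change of the members was -0.07, with a middle range of -0.20 to 0.03, against 0.00 over all tested genes with a middle range of -0.36 to 0.36. It lay below 0 in 54 of the 77 members.

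The size of the changes that did not pass was bounded by their intervals. The median standard error of a member's log2 fold change was 0.08. For all 56 members that did not pass the test, the 95% interval lay within a 1.5-fold change in either direction. Leaving out TNF-alpha replicate 1 changed the counts to 2 risen and 28 fallen, when 25.9% of all tested genes rose and 26.9% fell. All 17 fallen genes fell there too, 2 of the 4 risen genes still rose, and the median of the members was -0.15. Without TNF-alpha replicate 3, 11 members fell and 2 rose, and without vehicle replicate 1, 2 or 3 the number that rose was 2 each time.

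**Figure D1:**
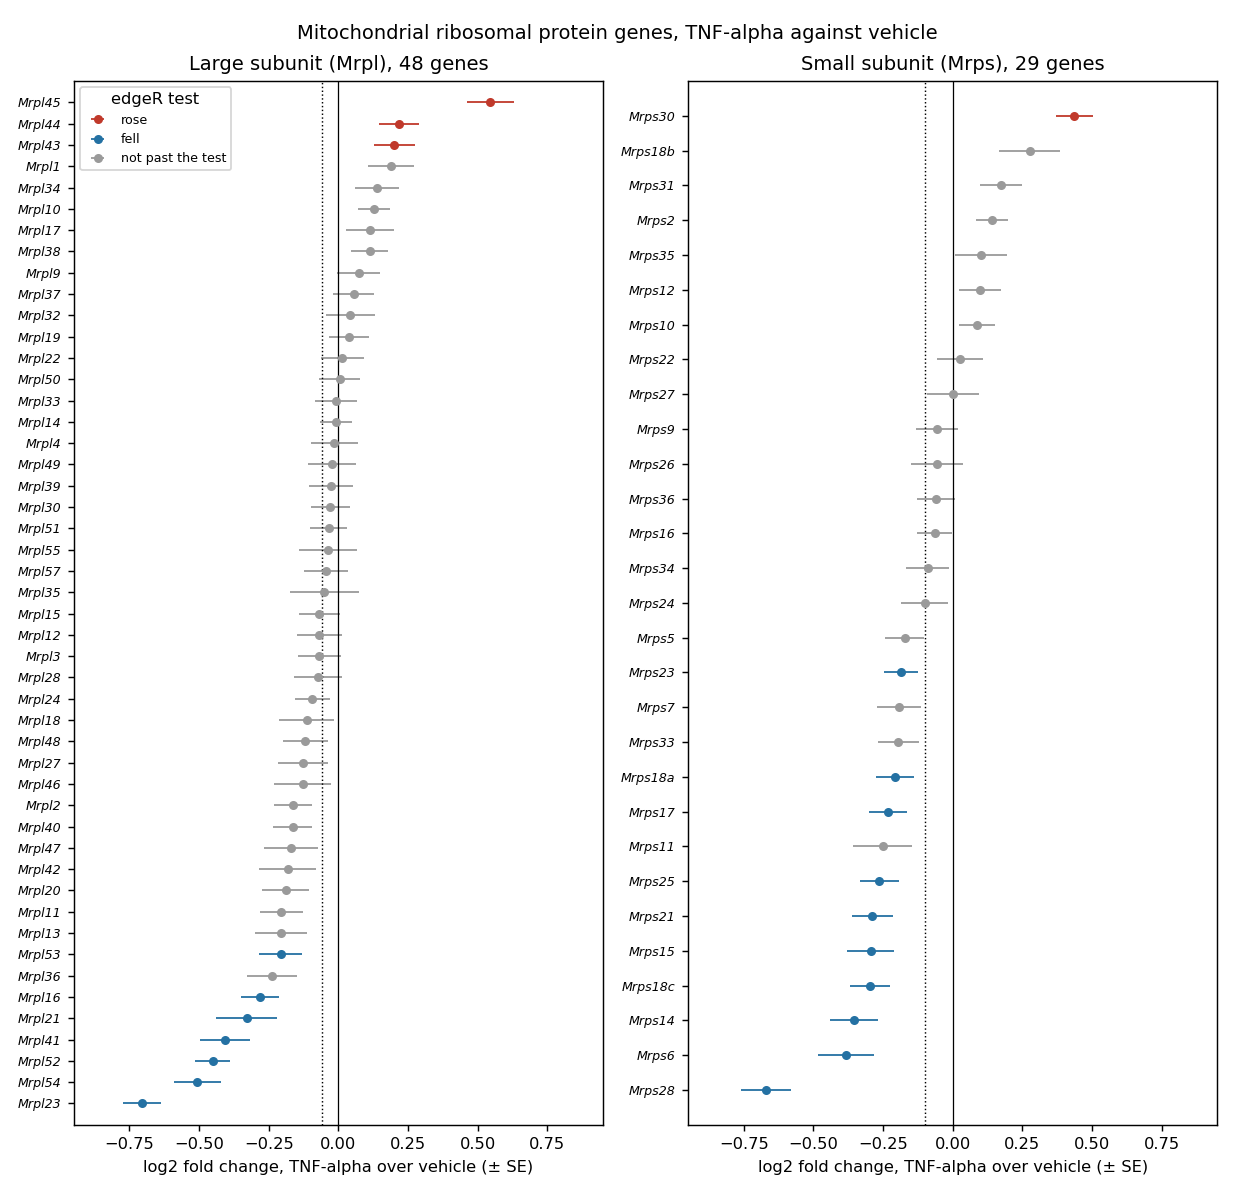
Log2 fold change (TNF-alpha over vehicle, x axis, error bars ± SE) of each Mrpl gene (left) and Mrps gene (right), coloured by the edgeR test, with the subunit median as a dotted line. Of the 77 points, 60 lie within 0.25 of 0, with Mrpl45 and Mrps30 at the upper end and Mrpl23 and Mrps28 at the lower end.

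The subunits were set side by side by symbol. Of 29 Mrps genes, 1 rose and 10 fell (34.5%), with a median log2 fold change of -0.10. Of 48 Mrpl genes, 3 rose and 7 fell (14.6%), with a median of -0.06. Over all tested genes 27.9% fell, which is nearer to the share of the small subunit than to that of the large subunit. The difference between the subunits was not tested, since genes are not replicates. Without TNF-alpha replicate 1, 14 genes of each subunit fell and 1 of each rose, and the medians were -0.18 for the small and -0.13 for the large subunit. Without TNF-alpha replicate 3, 6 Mrps genes fell, and without TNF-alpha replicate 2, 2 Mrps genes rose. The number of Mrpl genes that rose was 1 without TNF-alpha replicate 1 or 3 or without any 1 of the vehicle replicates.

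The symbols do not match the place of the protein in every case. Mrps30 and Mrps18a proteins sit in the large subunit of the mammalian ribosome, and the Mrps36 protein is now placed with the 2-oxoglutarate dehydrogenase complex. By place, 9 of 26 small subunit genes fell and 0 rose with edgeR, and their median was -0.14. At an unadjusted p under 0.05, 3 of the 26 rose, and 1 rose with DESeq2 and 0 with limma-voom. Of 50 large subunit genes by place, 4 rose and 8 fell, with a median of -0.06. The 4 genes that rose were all among the 30 whose current name gives no bacterial counterpart. Of these 30, 13.3% rose and 7 fell (23.3%). This class holds Mrps18a and Mrps18b, although both are paralogs of bacterial S18. Of the 46 named for a bacterial homologue, 10 fell (21.7%) and 0 rose with edgeR. Over all tested genes 27.6% rose and 27.9% fell, and the difference between the 2 classes was not tested. At an unadjusted p under 0.05, 2 of the 46 rose, and 0 rose with DESeq2 or limma-voom.

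The share of all assigned counts held by the 77 genes was 0.268%, 0.232% and 0.236% in the TNF-alpha libraries and 0.272%, 0.258% and 0.257% in the vehicle libraries. The means were 0.245% ± 0.0197 with TNF-alpha and 0.263% ± 0.00819 with vehicle (SD, n = 3 each), and the groups overlapped because of TNF-alpha replicate 1. The ratio of large to small subunit counts was 1.99, 1.94 and 1.96 with TNF-alpha and 1.93, 1.92 and 1.91 with vehicle. These groups did not overlap, by a narrow margin. The ratio of counts per kilobase of exon was 2.17 ± 0.0247 with TNF-alpha and 2.15 ± 0.0106 with vehicle (SD, n = 3 each), and those groups overlapped.

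**Figure D2:**
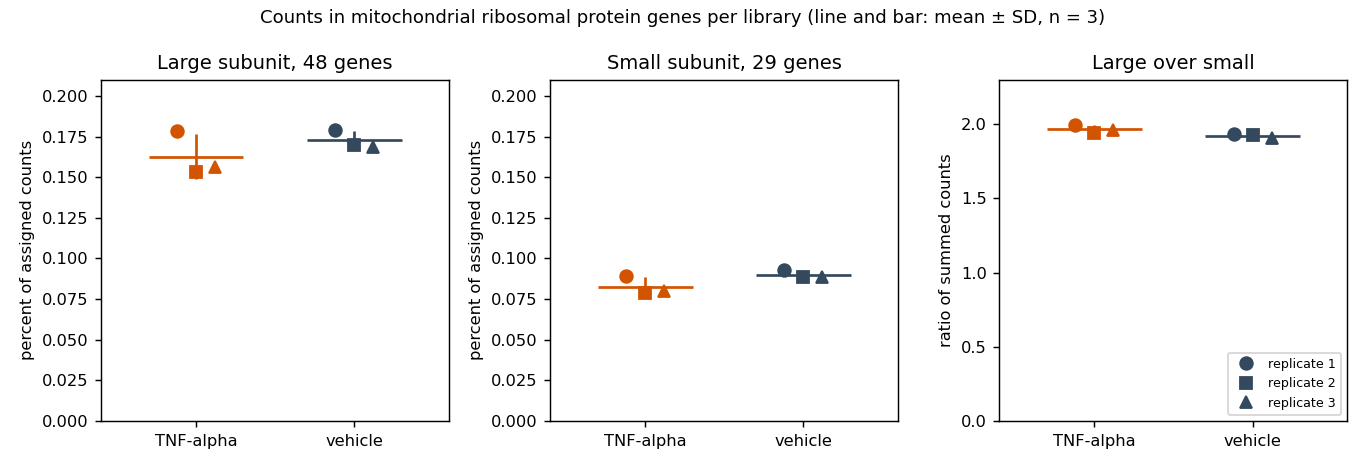
Percent of assigned counts in the large subunit genes (left) and small subunit genes (middle), and the ratio of their summed counts (right), for each of the 3 TNF-alpha libraries and the 3 vehicle libraries; lines and bars are means ± SD. TNF-alpha replicate 1 lies at the level of the vehicle libraries in both shares, above TNF-alpha replicates 2 and 3.

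Among the genes that rose, Mrpl45 had the largest change. Its protein lies at the mouth of the exit tunnel and holds the large subunit to the inner membrane. The gene (ENSMUSG00000018882.12, GRCm38 chr11:97315716-97329920, plus strand) had 80.3, 66.2 and 65.5 CPM in the TNF-alpha libraries, against 49.0, 46.8 and 49.6 CPM in the vehicle libraries. All TNF-alpha values lay above all vehicle values, with replicate 1 the highest. The log2 fold change was 0.54 ± 0.08 (SE, edgeR adjusted p = 0.000691). Its promoter above carries the nuclear respiratory factor 1 letters at 2 places in the printed stretch, and its window has another copy after the start.

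Mrps30, also called Pdcd9 in other naming schemes, is a large subunit protein in spite of its symbol. The gene (chr13:118378381-118387252, minus strand) had 48.9, 43.3 and 45.4 CPM with TNF-alpha, against 32.4, 34.7 and 34.6 CPM with vehicle. The groups were well apart, and the log2 fold change was 0.44 ± 0.07 (SE, edgeR adjusted p = 0.000675). An exon of Mrps30 overlaps the gene B430218F22Rik on the opposite strand, which is not among the tested rows. Mrpl45 and Mrps30 rose in all 15 alternative fits.

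Mrpl44, which carries a ribonuclease III fold beside the exit tunnel and in which human mutations cause a cardiomyopathy of infancy, had 30.7, 26.7 and 27.3 CPM with TNF-alpha, against 24.1, 24.5 and 24.3 CPM with vehicle. Its log2 fold change was 0.22 ± 0.07 (SE, edgeR adjusted p = 0.0323). Mrpl43, a mitochondria-specific protein of the large subunit, had 52.7, 45.5 and 45.9 CPM with TNF-alpha, against 42.3, 40.2 and 43.0 CPM with vehicle, a log2 fold change of 0.20 ± 0.07 (SE, edgeR adjusted p = 0.0439). The groups did not overlap for either gene. Without TNF-alpha replicate 1 the log2 fold changes were 0.15 for Mrpl44 and 0.13 for Mrpl43, and neither passed the test (edgeR adjusted p = 0.0794 and 0.106). Neither passed without TNF-alpha replicate 3, without any 1 of the vehicle replicates, or with upper-quartile or total-count scaling.

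Exons of Mrpl43 overlap those of the gene for Twinkle, the mitochondrial DNA helicase, on the opposite strand, listed in the table under its older symbol Peo1. That gene rose by a log2 fold change of 0.42 ± 0.06 (SE, edgeR adjusted p = 0.000459). Exons of Mrpl44 overlap Wdfy1, which did not pass the test. How the counting used strand is not given in the sources used here, so shared reads cannot be told apart. In all, 3 of the 4 genes that rose and 5 of the 17 that fell overlap exons of another gene, against 24 of the 56 that did not pass the test.

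**Figure D3:**
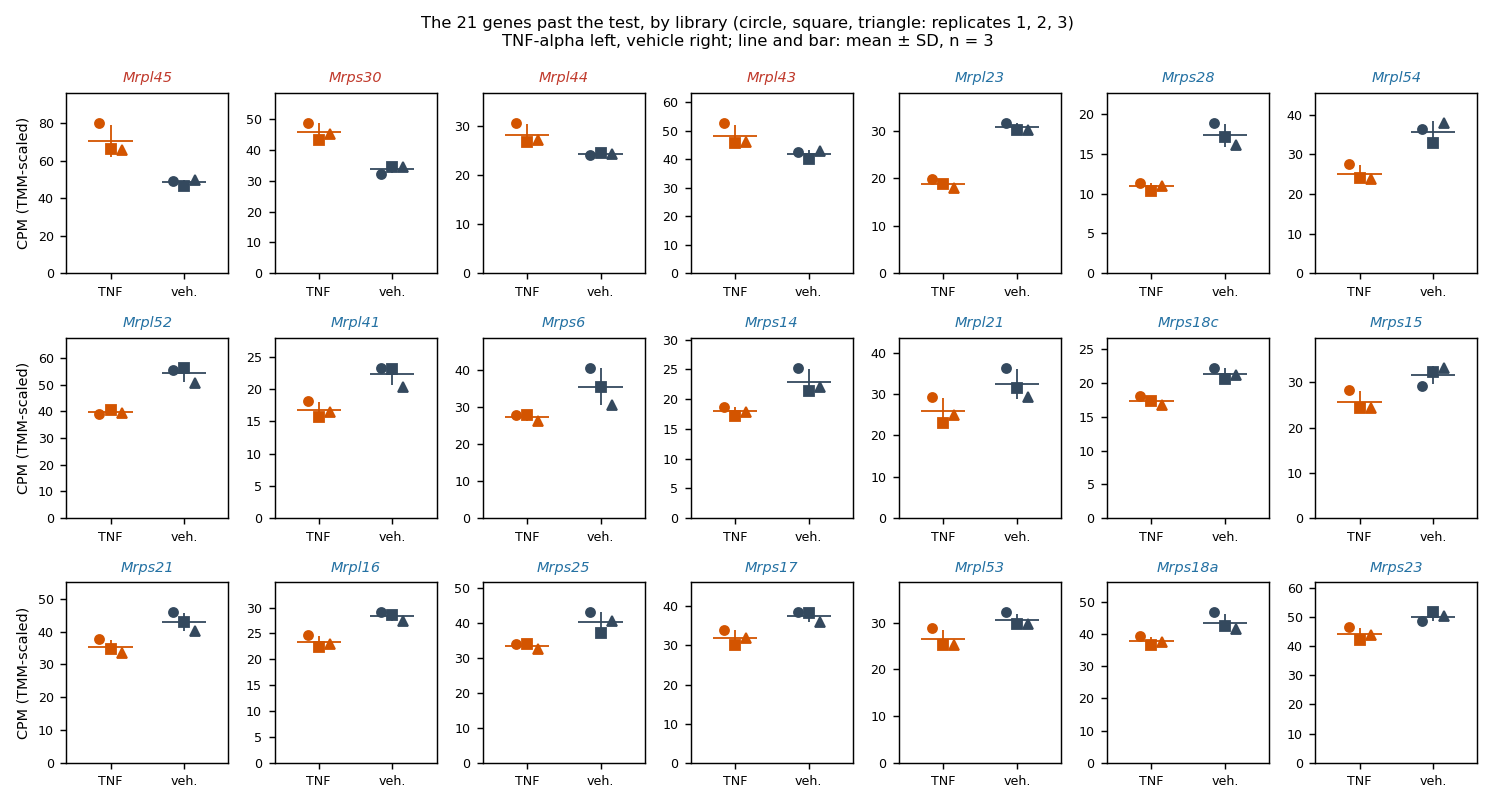
CPM (y axis, from 0) of the 21 members past the test in each library, with TNF-alpha left of vehicle in each panel; symbols mark replicates 1 to 3, lines and bars are means ± SD, and names are red for genes that rose and blue for genes that fell. In every panel the TNF-alpha points lie wholly above or wholly below the vehicle points.

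Among the large subunit genes that fell, Mrpl23 changed most. It is the homologue of bacterial L23, which lies at the exit of the tunnel and in bacteria docks the factors that receive the new chain. The gene (ENSMUSG00000037772.13, chr7:142532686-142540747, plus strand) had 19.9, 18.7 and 18.0 CPM with TNF-alpha, against 31.8, 30.3 and 30.3 CPM with vehicle. The groups were far apart relative to their spread, and the log2 fold change was -0.71 ± 0.07 (SE, edgeR adjusted p = 4.49e-05). Of the 7 genes placed at the exit tunnel, Mrpl23 alone fell, Mrpl44 and Mrpl45 rose and 4 did not pass the test. The Mrpl23 promoter above holds none of the searched letters, and the RefSeq start it is taken from lies inside the GENCODE gene.

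Mrpl54, Mrpl52 and Mrpl41 are proteins of the large subunit without a bacterial counterpart. Mrpl54 had 27.5, 24.1 and 23.8 CPM with TNF-alpha, against 36.4, 32.8 and 37.9 CPM with vehicle. Mrpl52 had 38.9, 40.6 and 39.4 CPM with TNF-alpha, against 55.4, 56.4 and 50.7 CPM with vehicle. Mrpl41 had 18.2, 15.7 and 16.5 CPM with TNF-alpha, against 23.3, 23.2 and 20.4 CPM with vehicle. In each the TNF-alpha values were lower without overlap. Mrpl52 is 1 of the 2 members in which TNF-alpha replicate 1 was not the highest of its group. The log2 fold changes were -0.51 ± 0.08 for Mrpl54, -0.45 ± 0.06 for Mrpl52 and -0.41 ± 0.09 for Mrpl41 (SE, edgeR adjusted p = 0.000989, 0.000345 and 0.00417). The other large subunit genes that fell were Mrpl21 (-0.33), Mrpl16 (-0.28) and Mrpl53 (-0.21), of which Mrpl16 fell in all 15 alternative fits. Mrpl21 overlaps exons of Ighmbp2 on the opposite strand, which rose by 0.37 on the log2 scale.

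Among the small subunit genes, Mrps28 fell most. Its protein is the counterpart of bacterial S1 in the current naming. The gene (ENSMUSG00000040269.5, chr3:8802146-8923918, minus strand) had 11.4, 10.4 and 11.0 CPM with TNF-alpha, against 18.9, 17.1 and 16.1 CPM with vehicle. The lowest vehicle value lay well above the highest TNF-alpha value, and the log2 fold change was -0.67 ± 0.09 (SE, edgeR adjusted p = 0.000317).

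Mrps6 and Mrps14 are homologues of bacterial S6 and S14. Mrps6 had 27.8, 27.7 and 26.1 CPM with TNF-alpha, against 40.6, 35.2 and 30.6 CPM with vehicle, a log2 fold change of -0.38 ± 0.10 (SE, edgeR adjusted p = 0.0103). Mrps14 had 18.7, 17.2 and 17.9 CPM with TNF-alpha, against 25.3, 21.4 and 22.1 CPM with vehicle, a change of -0.35 ± 0.09 (SE, edgeR adjusted p = 0.00693). The TNF-alpha libraries were tight in both genes and the vehicle libraries spread more widely. Mrps6 shares its locus and strand with Slc5a3, the myo-inositol transporter gene, which fell by 0.79 on the log2 scale, so the reads of these genes may be split uncertainly.

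Mrps21, the homologue of bacterial S21, had 37.6, 34.7 and 33.4 CPM with TNF-alpha, against 45.9, 43.0 and 40.3 CPM with vehicle (log2 fold change -0.29 ± 0.07 SE, edgeR adjusted p = 0.00922). The other Mrps genes that fell were Mrps15 (-0.29), Mrps25 (-0.26), Mrps17 (-0.23) and Mrps23 (-0.19), besides the Mrps18 genes described next. Mrps17 did not pass without TNF-alpha replicate 2 or 3 or without vehicle replicate 1 or 2. Of all members that fell, 11 did so in all 15 alternative fits, namely Mrpl16, Mrpl23, Mrpl41, Mrpl52, Mrpl54, Mrps6, Mrps14, Mrps18c, Mrps21, Mrps25 and Mrps28.

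Mammals have 3 paralogs of bacterial S18, and they did not move together. Mrps18c, the paralog in the position of S18 in the small subunit, had 18.1, 17.3 and 16.8 CPM with TNF-alpha, against 22.3, 20.5 and 21.2 CPM with vehicle (log2 fold change -0.30 ± 0.07 SE, edgeR adjusted p = 0.00769). Mrps18a, whose protein is in the large subunit, had 39.3, 36.5 and 37.4 CPM with TNF-alpha, against 46.7, 42.4 and 41.5 CPM with vehicle (-0.21 ± 0.07 SE, edgeR adjusted p = 0.0289). Mrps18b, at another place in the small subunit, had 57.9, 42.2 and 46.3 CPM with TNF-alpha, against 41.5, 38.8 and 40.5 CPM with vehicle. Its log2 fold change was 0.28 ± 0.11 (SE), which did not pass the test (edgeR adjusted p = 0.0596), although the groups did not overlap. Mrps18b passed without TNF-alpha replicate 2 and with DESeq2 (adjusted p = 0.0385), and Mrps18a did not pass without TNF-alpha replicate 2 or 3 or without vehicle replicate 1. The differences between the 3 paralogs were not tested.

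The 3 genes for the stalk that recruits translation factors and its base did not pass the edgeR test, and none passed with limma-voom, but Mrpl11 passed with DESeq2. Mrpl12, which forms the stalk and also binds the mitochondrial RNA polymerase, had 71.7, 57.5 and 65.8 CPM with TNF-alpha, against 68.1, 68.9 and 67.5 CPM with vehicle, and the groups overlapped. Mrpl10, which anchors Mrpl12, averaged 58.7 ± 2.19 CPM with TNF-alpha and 53.8 ± 1.62 CPM with vehicle (SD, n = 3 each). Mrpl11, at the base of the stalk, averaged 27.4 ± 1.89 CPM with TNF-alpha and 31.5 ± 2.01 CPM with vehicle (SD, n = 3 each). It came closest to a call among the Mrpl genes that did not pass (log2 fold change -0.20 ± 0.08 SE, edgeR adjusted p = 0.0507), and it passed in 8 of the 15 alternative fits, among them DESeq2 (adjusted p = 0.0446), the 3 other scalings, and the fits without TNF-alpha replicate 1 or vehicle replicate 3. Of 5 members assigned to the central protuberance, the crown of the large subunit, 0 passed with edgeR, DESeq2 or limma-voom. At an unadjusted p under 0.05, 1 of them was lower. The 5 may not be all of its proteins, and subunits outside the symbol rule were given no site.

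Several members with known roles in decoding or disease did not pass the test. Mrps12, the homologue of S12 at the decoding centre, averaged 19.0 ± 0.754 CPM with TNF-alpha and 17.7 ± 0.877 CPM with vehicle (SD, n = 3 each). Mrps5, the homologue of S5, averaged 29.1 ± 2.07 CPM with TNF-alpha and 32.9 ± 0.896 CPM with vehicle (SD, n = 3 each). Mrps22 and Mrps34, in which human mutations impair mitochondrial translation, had log2 fold changes of 0.03 ± 0.08 and -0.09 ± 0.08 (SE). Mrps5 passed in 3 of the 15 alternative fits, without TNF-alpha replicate 1 (log2 fold change -0.23) and with upper-quartile or total-count scaling. Mrps33, the Mrps gene nearest to a call, had a log2 fold change of -0.19 ± 0.07 (SE, edgeR adjusted p = 0.0518), and it passed in 7 of the 15 alternative fits, among them DESeq2 (adjusted p = 0.0462), the 3 other scalings, and the fits without TNF-alpha replicate 1 or vehicle replicate 2. Mrps36 had a log2 fold change of -0.06 ± 0.07 (SE). Nearest to the median of their subunit were Mrpl15 (log2 fold change -0.07) and Mrpl35 (-0.05), and Mrps24 (-0.10) and Mrps34 (-0.09).

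Most of these proteins are present as a single copy in the assembled particle, apart from the repeated stalk protein, but their transcripts were not equally abundant. The level per kilobase of exon, averaged over the 6 libraries, ran from 2.31 CPM per kb for Mrpl35 to 123 CPM per kb for Mrpl33, a 53.1-fold range, with a median of 21.8. Of the 77 members, 47 lay within 2-fold of that median. The highest large subunit levels were those of Mrpl33, Mrpl52 (95.5 CPM per kb) and Mrpl42 (90.5), and the lowest those of Mrpl35 and Mrpl47 (3.82). The highest Mrps levels were those of Mrps21 (79.6 CPM per kb), Mrps18b (41.3) and Mrps18a (39.2), and the lowest those of Mrps35 (5.02) and Mrps17 (5.79). The median level was 24.9 CPM per kb in the large and 19.7 in the small subunit. Merged exon length counts every exon of a gene's protein-coding transcripts in the GENCODE basic set. A gene with a long rarely used exon among them therefore has a low level on this scale. Mrpl33 and Mrpl35 had log2 fold changes of -0.01 ± 0.08 and -0.05 ± 0.12 (SE), and Mrps35 had 0.10 ± 0.09 (SE). Mrpl42 had -0.18 ± 0.10 (SE) and Mrpl47 -0.17 ± 0.10 (SE); Mrpl42 passed without TNF-alpha replicate 1.

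The members that fell had a median exon length of 940 bp, against 1928 bp for the 4 that rose and 1458 bp for those that did not pass the test. Of the 22 members under 1 kb, 10 fell (45.5%), whereas of all tested genes under 1 kb, 26.1% fell and 17.9% rose. None of the 22 rose with edgeR, also at an unadjusted p under 0.05, nor with DESeq2 or limma-voom (0 each). The median log2 fold change was -0.19 in the 22 short members and -0.10 in all 1180 tested genes of that length. Of the 30 members of 1 to 2 kb, 4 fell and 2 rose. Across the members, Spearman's correlation of the log2 fold change with exon length was 0.30 (n = 77 genes, which share the same 6 libraries), against -0.01 over 15186 tested genes with a length. The part of transcript length in these calls was not tested.

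**Figure D4:**
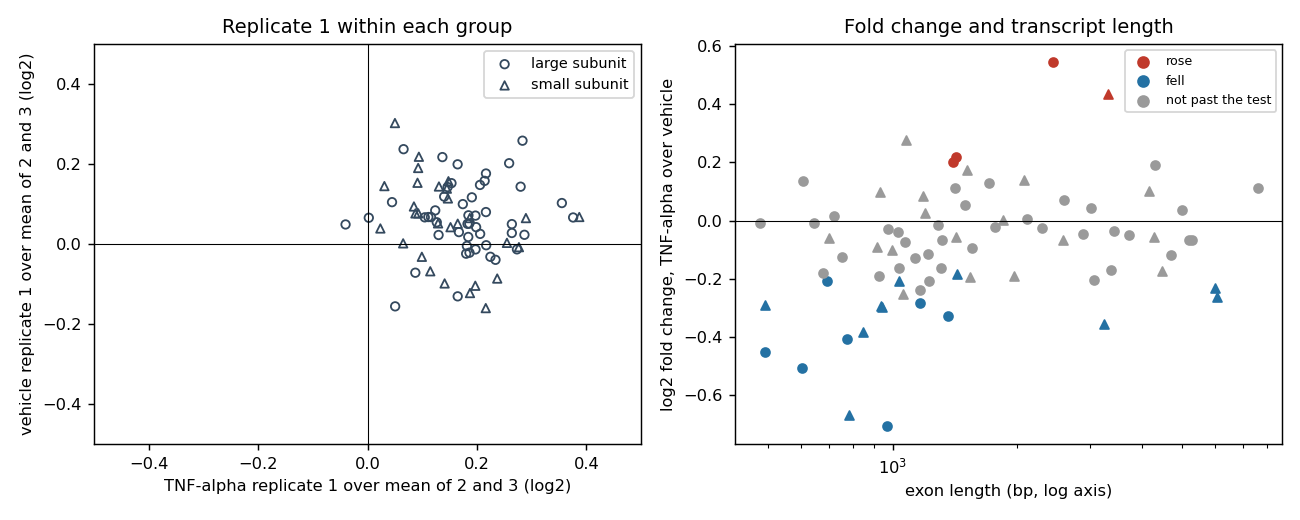
Left, level of replicate 1 over the mean of replicates 2 and 3 for each member, in TNF-alpha libraries (x axis, log2) and in vehicle libraries (y axis, log2); right, log2 fold change against merged exon length (log axis), coloured by the edgeR test, circles for large and triangles for small subunit genes. On the left 76 of the 77 points lie right of 0, while they spread to both sides of 0 on the vehicle axis; on the right, 10 of the 17 genes that fell lie under 1 kb.

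Of 6 subunits that the symbol rule leaves out, 1 rose and 3 fell. Dap3, a GTP-binding protein of the small subunit first described as a mediator of cell death, had 75.6, 68.0 and 73.7 CPM with TNF-alpha, against 55.3, 55.9 and 54.5 CPM with vehicle, and rose by a log2 fold change of 0.39 ± 0.06 (SE, edgeR adjusted p = 0.000596). Ict1, which releases stalled chains from the ribosome, fell (-0.34 ± 0.08 SE, edgeR adjusted p = 0.00642). Aurkaip1 of the small subunit (-0.31 ± 0.08 SE) and Gadd45gip1 of the large subunit (-0.16 ± 0.05 SE) also fell (edgeR adjusted p = 0.0107 and 0.0327). Gadd45gip1 did not pass without vehicle replicate 1 or 2 or without any 1 of the TNF-alpha replicates. The log2 fold changes of Ptcd3 (0.04 ± 0.10 SE) and Chchd1 (0.12 ± 0.06 SE) did not pass the test.

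Among the factors that build the particle and modify its RNA, more rose than fell. Of 29 assembly and RNA modification genes, 12 rose and 3 fell (41.4% and 10.3%, against 27.6% and 27.9% of all tested genes), with a median log2 fold change of 0.17. Mrm1, a methyltransferase for the large ribosomal RNA, averaged 19.6 ± 1.48 CPM with TNF-alpha and 9.91 ± 0.591 CPM with vehicle (SD, n = 3 each), a log2 fold change of 0.98 ± 0.09 (SE, edgeR adjusted p = 3.66e-05). The pseudouridine synthase gene Rpusd3 rose (0.76 ± 0.13 SE), as did Rpusd4 (0.54), the helicase gene Ddx28 (0.50) and Ybey (0.42). Mpv17l2 (-0.45 ± 0.09 SE), Tfb1m, a methyltransferase for the small ribosomal RNA (-0.35 ± 0.12 SE), and Wbscr16 (-0.24) fell. The number that fell was 1 without TNF-alpha replicate 3 or without any 1 of the vehicle replicates.

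Of 18 translation factor and messenger-handling genes, 1 rose (5.56%) and 6 fell (33.3%, near the 27.9% of all tested genes), with a median log2 fold change of -0.08. The initiation factor gene Mtif3 rose (0.32 ± 0.07 SE, edgeR adjusted p = 0.00319). Lrpprc and Slirp, whose products form a complex that stabilises mitochondrial messenger RNAs, fell by 0.44 and 0.43 on the log2 scale (SE 0.07 each, edgeR adjusted p = 0.000927 and 0.00127). The elongation factor gene Gfm1 (-0.18), Gfm2 (-0.16), Guf1 (-0.34) and the insertase gene Oxa1l (-0.20) also fell. Without TNF-alpha replicate 2, 3 of this list fell. Of 20 mitochondrial aminoacyl-tRNA synthetase genes, 2 rose (10%) and 3 fell (15%), both below the 27.6% and 27.9% of all tested genes. Pars2 (0.36) was among those that rose, and Ears2 (-0.37), Hars2 (-0.25) and Tars2 (-0.19) fell. Without TNF-alpha replicate 2 or 3, 1 of the 20 fell, and without TNF-alpha replicate 3 or vehicle replicate 1, 1 of the 20 rose. Of 18 genes of mitochondrial transcription and DNA upkeep, 4 rose (22.2%, near the 27.6% of all tested genes). Trmt10c (0.61 ± 0.09 SE) and Peo1 were among them. Hsd17b10 alone fell (-0.35 ± 0.07 SE), which is 5.56% of the list, against 27.9% of all tested genes. Without TNF-alpha replicate 1, 4 of that list fell, and without vehicle replicate 2, 2 fell.

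The products of the particle join subunits encoded in the nucleus, and most of those genes fell. Of 77 nuclear oxidative phosphorylation genes, 53 fell (68.8%) and 1 rose, with a median log2 fold change of -0.26. Of the 15 ATP synthase genes, 14 fell, with a median of -0.40. Ndufs8, a core subunit of complex I, averaged 34.8 ± 1.17 CPM with TNF-alpha and 68.2 ± 6.96 CPM with vehicle (SD, n = 3 each). The cytosolic ribosomal protein list held 82 genes with close paralogs such as Rpl22l1 and Rps27l. Of these, 61 fell (74.4%) and 2 rose, with a median of -0.31; 1 rose without vehicle replicate 2 or 3. The differences between these lists and the members were not tested. TNF-alpha replicate 1 was the highest of its group for 75.3% of the oxidative phosphorylation genes and for 7.32% of the cytosolic ribosomal protein genes.

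**Figure D5:**
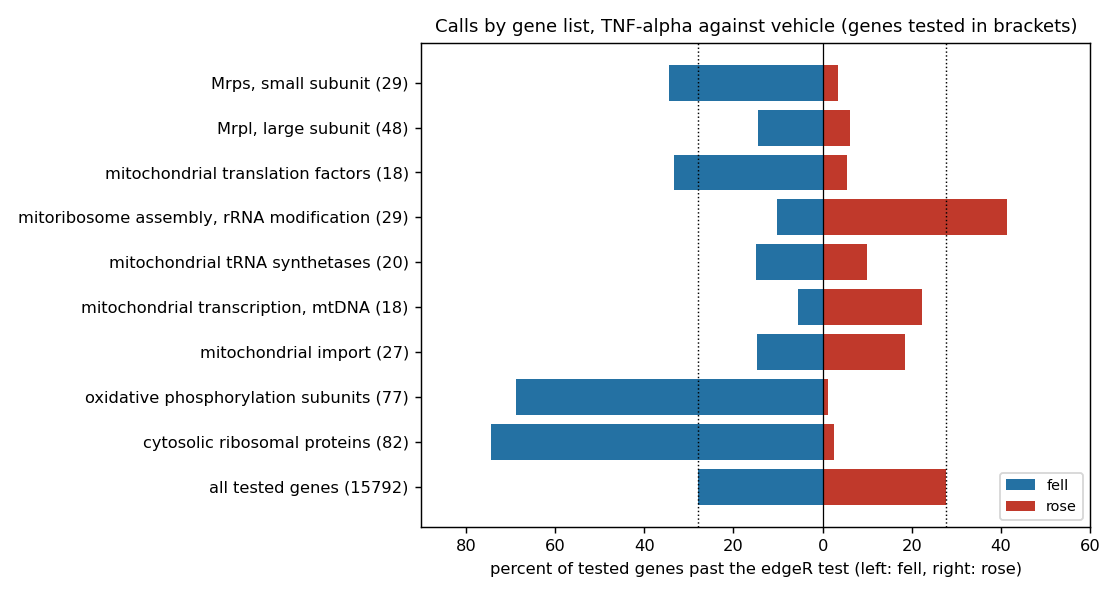
Percent of tested genes that fell (left of 0) and rose (right of 0) in each list, with the number of tested genes in brackets and the share over all 15792 tested genes as dotted lines. The Mrpl and Mrps bars are shorter on the rising side than the background, while the oxidative phosphorylation and cytosolic ribosomal protein bars reach 68.8% and 74.4% on the falling side.

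The factors known to bind the promoter letters above moved in different directions. Nrf1, nuclear respiratory factor 1, rose by a log2 fold change of 0.64, Yy1 rose by 0.58, and Gabpb1, the beta subunit of GABP, rose by 0.33. Gabpa, the DNA-binding subunit of GABP, averaged 60.3 ± 1.91 CPM with TNF-alpha and 83.2 ± 2.98 CPM with vehicle (SD, n = 3 each), a log2 fold change of -0.46 ± 0.06 (SE, edgeR adjusted p = 0.000174). The coactivator gene Ppargc1a fell (-1.08 ± 0.17 SE), as did Ppargc1b (-0.78), while Perm1 (2.37 ± 0.20 SE) and Esrra (0.56 ± 0.06 SE) rose. In all, 8 of 12 regulators of mitochondrial biogenesis rose and 3 fell (66.7% and 25%, against 27.6% and 27.9% of all tested genes). Leaving out any 1 library gave 7 that rose and 3 that fell. These are levels of messenger RNA, and no binding was measured.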

How the data were processed

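RNA sequencing libraries of 3 TNF-alpha and 3 vehicle constructs were compared, grouped by their titles. Estimated counts are what the deposited table gives for each gene: 20.1% to 21.0% of a library's values have decimals, whereas the series text describes integers. The submitters' processing notes name mm10 and GRCm38 as builds and, as tools, TopHat2 2.1.1, Bowtie2 2.3.5.1, featureCounts, Subread 2.0.0 and DESeq2. Counting options and strand use are not given in the sources used, so genes that overlap or share reads are uncertain, and 46 of the 77 members had a count with decimals in at least 1 library.

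The estimated counts were rounded, in place of the whole counts that had been assumed, and filtered with filterByExpr. They were tested across all genes with edgeR 4.0.16 (R 4.3.3), using TMM scaling, a robust quasi-likelihood fit with group as the only term, and Benjamini-Hochberg adjustment. CPM values are TMM-scaled, errors of fold changes come from the F statistic, and intervals cover 95%. The biological coefficient of variation was 12.1%. Replicates differed by more than sampling noise (chi-square per degree of freedom 22.9 to 70.1), so none was a duplicate. Positions and merged exon lengths came from GENCODE M21 on GRCm38, and promoters from RefSeq on GRCm38.p6. Where a member had several promoter windows, all were searched.

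The members and gene lists were chosen with earlier results of these data known, so no list was tested as a set. Subunit places and homology follow current ribosomal protein naming, which marks proteins without a bacterial counterpart with the prefix m. Genes were named by rule: per subunit the 4 largest rises and falls past the test without overlap, the highest and lowest levels per length, 15 members with known roles, the smallest p-values on each side of the test, those nearest the median, and the 2 smallest p-values per direction in the other lists. The other members that changed, the other genes that moved in the short lists, the partners of overlapping genes and Mrpl49 and Mrpl32 were named after their values were seen. The values of 1 gene that the rule names are not reported here. The procedure was tested on simulated data. The alternatives were other scalings and filters, DESeq2 1.42.0, limma-voom (limma 3.58.1), no robust estimation, a replicate block and leaving out each library.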

Additional observations from a re-analysis of the deposited data

How the results depend on the processing

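Under 15 alternative fits 11 members fell and 2 rose in every one, 8 called members lost their call in at least 1, and 13 members gained one. The direction of every called member was kept. With upper-quartile or total-count scaling 2 members rose, 1 of them Mrpl, as did 3 of the 82 subunits in all, and 3 genes of mitochondrial transcription fell. Upper-quartile scaling gave 11 fallen Mrpl genes. These scalings moved the median of all genes to -0.03. With a stricter filter on low counts or with DESeq2, 2 Mrps genes rose. With no filter or with DESeq2, 2 genes of mitochondrial transcription fell. The log2 fold change of Mrps22, not past the test, was -0.00753 with upper-quartile and -0.00399 with total-count scaling. The large to small ratio was higher with TNF-alpha by 0.0435 from counts and by 0.0179 from counts per kilobase.

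Replicate numbers did not pair the libraries (correlations of 0.04, -0.05 and -0.11 between same-numbered libraries). With the replicate block 11 Mrpl genes fell, 2 Mrps genes rose, 1 assembly gene fell, 2 genes of mitochondrial transcription fell, and 21 members fell in all; Mrpl11, Mrps33 and Mrps18b passed the test and Gadd45gip1 did not (adjusted p = 0.0558).

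Leaving out 1 library at a time gave the following ranges. Members that rose numbered 2 to 5 and members that fell 11 to 28. Mrpl genes that rose numbered 1 to 3 and fell 5 to 14, and Mrps genes that rose numbered 1 to 2 and fell 6 to 14. All 82 subunits gave 3 to 6 rises and 13 to 30 falls. Falls numbered 3 to 5 in translation factors, 1 to 4 in assembly genes, 1 to 4 in tRNA synthetases, 1 to 4 in mitochondrial transcription, 2 to 7 in import and 1 to 4 in chaperones and proteases. Rises numbered 1 to 2 in tRNA synthetases and 1 to 2 in cytosolic ribosomal proteins. The small subunit median ranged from -0.18 to -0.061. The log2 fold changes ranged from -0.075 to 0.024 for Mrpl33, from -0.18 to 0.018 for Mrpl35, from -0.14 to 0.0091 for Mrpl12, from -0.038 to 0.073 for Mrps22 and from -0.089 to 0.12 for Ptcd3, none past the test. The cause of these changes was not tested. With 3 libraries per group, the smallest change of a member that passed the test was 1.14-fold, in Mrps23.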

Other observations

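Among genes of mitochondrial protein quality control, Afg3l2 and Lonp1 changed by more than any mitochondrial ribosomal protein gene, of which the largest change was 1.63-fold. Afg3l2, a subunit of the inner membrane protease that in mouse and yeast also processes Mrpl32, averaged 183 ± 12.9 CPM with TNF-alpha and 82.3 ± 2.04 CPM with vehicle (SD, n = 3 each), a log2 fold change of 1.15 ± 0.07 (SE, edgeR adjusted p = 2.56e-06). Lonp1, the matrix protease, averaged 248 ± 13.5 CPM with TNF-alpha and 127 ± 7.94 CPM with vehicle (SD, n = 3 each), a log2 fold change of 0.96 ± 0.07 (SE, edgeR adjusted p = 1.03e-05). These 2 genes rose (13.3%) and 4 others fell (26.7%) among 15 chaperone and protease genes. With all 6 libraries, the background was 27.6% for rises and 27.9% for falls. The share of this list that rose was below that background, and the share that fell was near it. The chaperonin partner Hspe1 was among those that fell (-0.35 ± 0.08 SE). Of 27 import genes, 5 rose (18.5%) and 4 fell (14.8%), both below the same background with all 6 libraries. The matrix motor chaperone Hspa9 rose (0.48 ± 0.08 SE), as did its exchange factor Grpel1 (0.36 ± 0.06 SE), while Timm17b (-0.37 ± 0.07 SE) and Dnajc19 (-0.24 ± 0.06 SE) fell. Without TNF-alpha replicate 1, 7 import genes fell, and without TNF-alpha replicate 2 or 3 or vehicle replicate 1, 2 fell. Among chaperones and proteases, 1 fell without TNF-alpha replicate 2 or 3 or vehicle replicate 2, and 2 fell without vehicle replicate 1 or 3.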
